A study of Mus musculus with 6 samples.

Results

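Myoblast fusion proteins are the membrane proteins that bring muscle precursor cells together and merge them into multinucleated fibres. The 9 genes described here are the fusogens Mymk and Mymx, the ferlins Myof and Dysf, and the cell adhesion genes Cdh15, Cdh2, Jam2, Jam3 and Kirrel. They were taken by symbol, through the GENCODE M21 annotation, from a table of 54393 mouse genes, and all 9 were found there. RNA was sequenced from tibialis anterior, a fast muscle on the shin of adult mice, with 3 wild-type (WT) muscles and 3 muscles of Dock3 knockout (Dock3 KO) mice. The WT samples carry titles that begin with C57. The allele, the sex and the strain of the Dock3 KO mice are not given in the sources used here, and neither is whether the 3 muscles of a group came from separate animals, so p-values measure the spread between these samples. Dock3 encodes an exchange factor that activates the GTPase Rac, and the series title asks about fusion of muscle cells and dystrophin deficiency. No sample is dystrophin-deficient by its labels.

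In fusion, precursor cells first recognise each other through cadherins and immunoglobulin-type adhesion proteins, then push actin-rich protrusions into each other under the control of Rac. Mymk (myomaker), a protein with several membrane-spanning segments, starts the merging of the outer membrane leaflets, and Mymx (myomerger, minion) completes the pore. In resting adult muscle, whose fibres have already formed, both fusogens are normally kept low and are switched on when satellite cells, the stem cells of muscle, enter differentiation. Ferlins are calcium-binding membrane proteins. Myof acts in fusing myoblasts, and Dysf patches tears in the membrane of mature fibres.

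The values are normalized counts, which are read counts per gene, not whole numbers, that the authors put on a common scale between samples. They summed to between 23520223 and 33393950 per sample. A single read is worth about as much as the low value that a sample holds most often. That was 0.775 to 0.886 normalized counts in 4 samples and 1.40 and 1.52 in Dock3 KO replicates 1 and 2. This puts the depth at approximately 21700000 to 32500000 reads, an estimate and not a count, so no counting intervals are given. In the same Dock3 KO replicates 1 and 2, the transcripts Gm42418 and Lars2 made up 17.9% and 20.3% of the sum, against 3.00% to 3.64% in the other 4 samples. Dock3 itself ranged from 118 to 169 normalized counts in the WT muscles, against 22.4, 1.78 and 1.54 in the knockout (replicates 1, 2 and 3). All 10 skeletal muscle markers were tested and none of them passed the threshold used here, with a median log2 difference of 0.01, and their summed values overlapped between the genotypes. The threshold is a limma p, under 0.05 after Benjamini-Hochberg adjustment over the 16031 genes whose mean reached 10 normalized counts. Log2 differences are Dock3 KO minus WT on the log2(normalized count + 1) scale, which understates the change of low genes.

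None of the 8 members that were tested passed this threshold with limma, against 1.03% of all genes tested (0.443% higher and 0.586% lower). At an unadjusted p under 0.05 there were 3 of 8 (Mymx, Dysf and Myof), against 10.5% of all genes. For 4 of the 8, WT and Dock3 KO samples did not overlap, with 3 lower and 1 higher in Dock3 KO, against 16.2% of all genes (8.65% lower and 7.6% higher). Mymk was below the filter and is given by its values and by the fit without a filter. For Mymk and the 4 members without overlap, the exact two-sided permutation p was 0.1, the smallest that 3 against 3 samples allow. Mymx passed the filter only through its WT values, so its place in these counts was partly set by the filter. The members were chosen with earlier results of these data known, so these counts are a description.

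**Figure D1:**
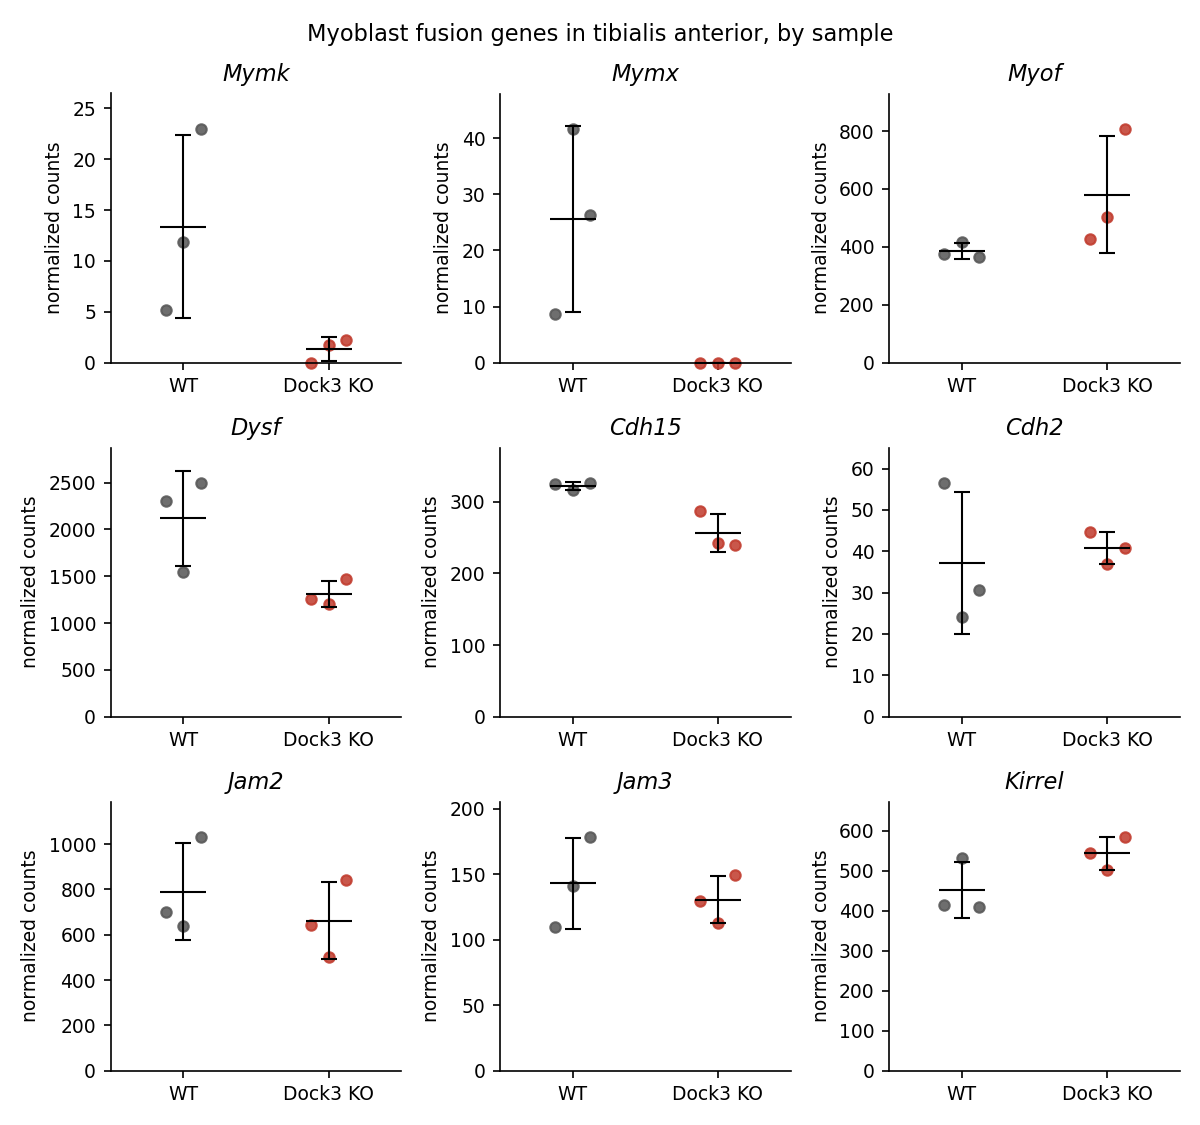
Normalized counts (vertical axis, from 0) of the 9 genes in each WT and Dock3 KO sample. Points are samples, and the bar with whiskers is the mean ± SD (n = 3). Mymk, Mymx, Dysf and Cdh15 lie lower in every Dock3 KO sample than in any WT sample, Myof lies higher, and Cdh2, Jam2, Jam3 and Kirrel overlap.

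Both fusogens were near or at 0 in Dock3 KO muscle and present at a low level in WT muscle. Mymx (ENSMUSG00000079471, chromosome 17, 45600971 to 45602102, minus strand, GRCm38) is a compact gene that no other annotated gene overlaps. GENCODE M21 lists 4 coding transcripts of it, each with 2 exons. In 3 of them the reading frame has 84 codons before the stop, and in 1 it has 108. The shorter frame, 255 bases from 45601671 down to 45601417, is shown because Mymx is the member listed at 0 in every knockout sample, with the start and stop codons in capitals.
Mymx coding sequence: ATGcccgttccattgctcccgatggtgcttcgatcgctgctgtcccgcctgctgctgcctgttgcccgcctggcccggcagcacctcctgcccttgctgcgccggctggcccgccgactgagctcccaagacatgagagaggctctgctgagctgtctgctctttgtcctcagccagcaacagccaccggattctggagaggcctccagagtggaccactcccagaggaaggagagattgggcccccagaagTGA

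The WT muscles (replicates 1, 3 and 4) had Mymx at 8.61, 41.7 and 26.3 normalized counts, and all 3 knockout muscles had it listed at 0. In units of 1 read, the WT values stand for about 9.72, 50.4 and 32.0 reads. WT replicate 1 was thus the lowest of the WT samples and still above all Dock3 KO samples. The limma p was 0.000583 and the adjusted p 0.0544, which misses the threshold. With no filter on low values, where 33678 genes were tested and 0.656% of them called, the limma adjusted p was 0.0102. Over 17 alternatives the adjusted p ran from 0.0102 to 0.526 (limma), and Mymx was called in 4 of them. Without WT replicate 3, which held its highest value, its mean was under the filter and it was not tested. No fold change is given, because every Dock3 KO value is 0 and the fitted difference depends on the pseudocount.

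An exact 0 can be a failed estimate in a table without whole counts. Of 12 widely expressed genes looked up, such as Actb and Gapdh, 0 were listed at 0 in any sample, and the lowest value among them was 168 normalized counts. These genes are far more abundant than Mymx, so they cannot show whether a low gene was listed at 0 by a failed estimate. Among 4227 genes with a WT mean from 10 to 50 normalized counts, 29 had 0 in each of the 3 knockout samples. For protein-coding genes the numbers were 10 of 2383, and Mymx is 1 of the 10. The band was set on the WT values, and the count in the other direction is not given here. No near-identical copy of Mymx, or of any other member, was found among the GENCODE M21 transcripts.

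Mymk (ENSMUSG00000009214) is annotated on chromosome 2 (27061636 to 27072179, minus strand). Its values were 5.21, 11.9 and 23.0 normalized counts in the WT muscles (replicates 1, 3 and 4), against 0, 1.73 and 2.27 in the knockout (replicates 1, 2 and 3). The Dock3 KO values stand for about 0, 1.14 and 2.92 reads, so they sit at the level of single reads. The means were 13.4 ± 9.0 in WT against 1.33 ± 1.18 in the knockout (SD, n = 3 each), so that the Dock3 KO mean was 9.97% of the WT mean. The groups did not overlap. Its mean over all samples, 7.35 normalized counts, is under the filter. Without the filter the limma p was 0.00631 and the adjusted p 0.292, which is not past the threshold. For both fusogens, WT replicate 1 was the lowest of the WT samples and no Dock3 KO sample reached it. Dock3 KO replicate 3, the knockout sample whose Gm42418 and Lars2 share was at the WT level, also had Mymx at 0 and Mymk below every WT value. That is 1 sample. With log2 Gm42418 as a covariate, the limma adjusted p of Mymx was 0.526. Its fitted log2 difference was -4.37, against -4.49 in the main fit, and both depend on the pseudocount of 1. That fit called 57 genes over the whole table, against 165 in the main fit. Whether the Gm42418 and Lars2 share bears on the fusogen values was not tested. In bulk muscle, fewer cells that express a gene and less RNA per cell cannot be told apart.

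The log2 ratio of Mymx to Mymk, each as normalized count + 1, was taken within each sample. It was 0.85 ± 0.80 in WT against -1.05 ± 0.92 in the knockout (SD, n = 3 each). The Dock3 KO ratios rest on Mymx values of 0 and on the pseudocount, so they carry no information on the balance of the fusogens there. The difference, -1.90, was -3.82 with a pseudocount of 0.1 and -0.73 with a pseudocount of 10. The exact two-sided permutation p was 0.1, the smallest that 3 against 3 samples allow, and 0.25 after Benjamini-Hochberg adjustment over the 5 ratios computed.

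**Figure D2:**
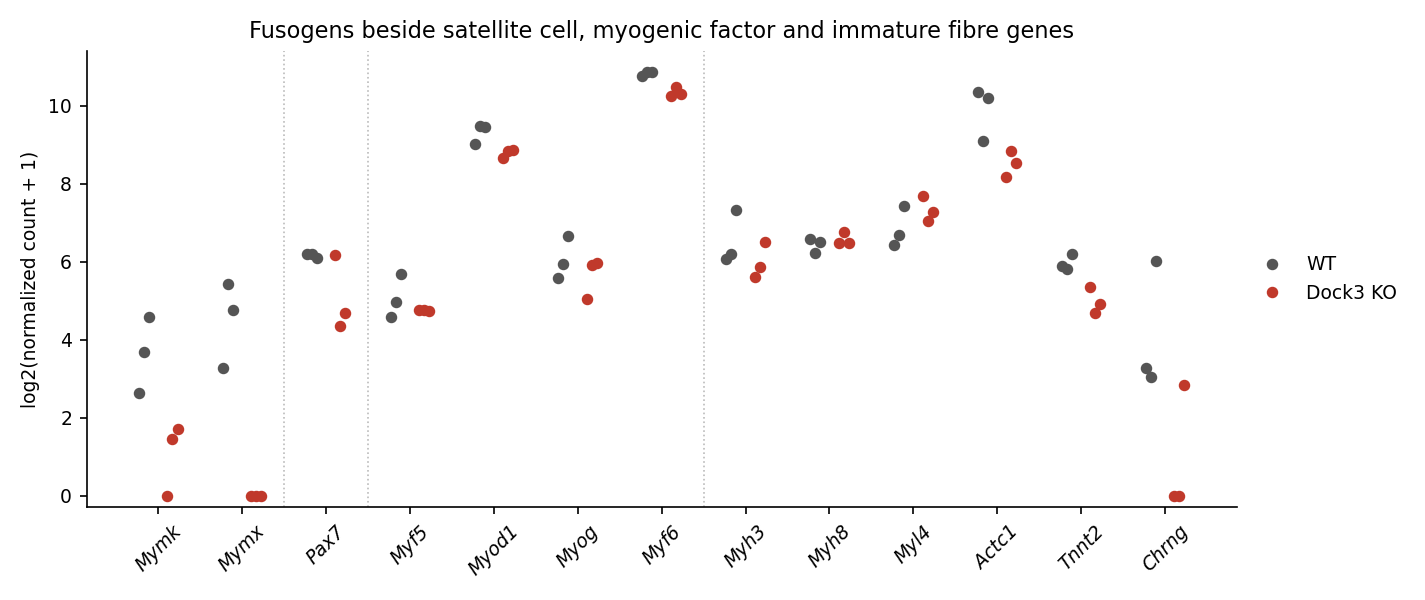
Levels of both fusogens beside the satellite cell gene Pax7, the myogenic factors and genes of immature fibres, as log2(normalized count + 1) on the vertical axis. Each point is a sample, grey for WT and red for Dock3 KO. Mymk, Mymx, Myod1, Myf6, Actc1, Tnnt2 and Chrng lie lower in every Dock3 KO sample, while Myog, Myf5, Pax7, Myh3, Myh8 and Myl4 overlap between the genotypes.

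The transcription factors that switch on fusion genes were compared next. Of 11 muscle transcription factors tested, 0 passed the limma threshold, and 3 had an unadjusted p under 0.05, all of them lower in Dock3 KO (median log2 difference of the list -0.14, of all genes -0.01). Over all genes, 1.03% passed and 10.5% had an unadjusted p under 0.05. Myf6, the myogenic factor of mature fibres, stood at 1733, 1870 and 1870 normalized counts in the WT muscles, against 1218, 1435 and 1262 in the knockout. Its log2 difference was -0.49 ± 0.123 (SE, limma adjusted p 0.140). Myod1, the factor that commits cells to the muscle lineage, stood at 516, 717 and 707 in the WT muscles, against 401, 461 and 462 in the knockout. Its log2 difference was -0.54 (limma adjusted p 0.249). Neither gene overlapped between the genotypes. Myog, the factor of terminal differentiation, did overlap, at 47.0, 60.8 and 100 in WT and 31.8, 59.8 and 61.3 in Dock3 KO.

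Markers of satellite cells and of immature fibres were read beside the fusogens, since differentiating satellite cells and young fibres are where fusogens are made. Pax7, the defining satellite cell gene, stood at 71.9, 72.0 and 67.6 normalized counts in the WT muscles, against 71.0, 19.4 and 24.6 in the knockout. In Dock3 KO replicate 1, Pax7 lay at the WT level and both fusogens were listed at 0. That is 1 sample, in which a single read is worth about 1.40 normalized counts, and a link between these values was not tested. The 8 satellite cell markers together summed to 1830 to 2078 in WT and 2348 to 2431 in Dock3 KO, a sum carried by Itga7 and Sdc4, which fibres also express. Of the 7 of them tested, 0 passed and 2 had an unadjusted p under 0.05 (limma), Itga7 higher and Pax7 lower. The list did not follow Pax7, and its median log2 difference was 0.09, against -0.01 for all genes. Vcam1, Chodl and Fgfr4 had log2 differences of 0.16, 0.07 and 0.09, and Megf10 of -0.19. Each of these overlapped between the genotypes.

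The 6 markers of immature or regenerating fibres summed to 859 to 1725 normalized counts in WT and 669 to 781 in Dock3 KO, a sum led by Actc1. None of the 6 passed the threshold, and 3 had an unadjusted p under 0.05, all lower in Dock3 KO, against 10.5% of all genes (limma). Chrng, among these 3, passed the filter only through its WT values, so its place in this count was partly set by the filter. Actc1, the cardiac actin that immature fibres make, stood at 1313, 548 and 1168 in the WT muscles, against 287, 461 and 372 in the knockout (log2 difference -1.36, limma adjusted p 0.0939). Chrng, the fetal acetylcholine receptor subunit, stood at 8.58, 7.26 and 63.6 in the WT muscles, against 0, 0 and 6.19 in the knockout (limma adjusted p 0.327). The embryonic myosin Myh3, the neonatal myosin Myh8 and the embryonic myosin light chain Myl4 overlapped between the genotypes, and the log2 differences of Myh8 and Myl4 were above 0, at 0.13 and 0.48. The part of these cells and fibres in the fusogen values was not tested.

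The ferlins differed in direction, Dysf lower and Myof higher in every Dock3 KO sample, and neither was past the threshold. Dysf (ENSMUSG00000033788, chromosome 6, 84008590 to 84211060, plus strand) was the most abundant member per length. It stood at 2308, 1548 and 2501 normalized counts in the WT muscles (replicates 1, 3 and 4), against 1255, 1208 and 1467 in the knockout (replicates 1, 2 and 3). WT replicate 3 was the lowest of its group and still above Dock3 KO replicate 3, the highest of the knockout. The means were 2119 ± 504 and 1310 ± 138 (SD, n = 3 each), a Dock3 KO mean of 61.8% of the WT mean. The log2 difference was -0.67 (95% interval -1.08 to -0.26, limma adjusted p 0.182). Dysf passed the threshold in 1 of 19 alternatives, without WT replicate 3, where the difference was -0.88 (limma adjusted p 0.0489). With Dock3 KO replicate 3 as the only knockout the difference was -0.50. Dysf overlaps 1 processed pseudogene on its own strand and 2 antisense genes.

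Myof (ENSMUSG00000048612, chromosome 19, 37899036 to 38043577, minus strand) was the less abundant ferlin per length. It stood at 376, 418 and 365 normalized counts in the WT muscles, against 427, 502 and 808 in the knockout (replicates 1, 2 and 3). Dock3 KO replicate 1 stood just above the highest WT sample, and replicate 3 stood far above the others. The means were 386 ± 28.0 and 579 ± 202 (SD, n = 3 each), and the log2 difference was 0.53 (95% interval 0.03 to 1.03, limma adjusted p 0.437). The difference was 0.26 without Dock3 KO replicate 3 and 1.07 with that sample as the only knockout, so replicate 3 set much of its size. Rescaling all samples to the same total gave 0.26.

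Within a sample, the log2 ratio of Myof to Dysf was -2.62, -1.89 and -2.77 in WT replicates 1, 3 and 4 and -1.55, -1.26 and -0.86 in Dock3 KO replicates 1, 2 and 3. All Dock3 KO ratios were higher than all WT ratios. The mean difference was 1.20, and it ran from 1.02 to 1.47 when each sample was left out in turn. The exact two-sided permutation p was 0.1, the smallest this design allows, or 0.25 adjusted over the 5 ratios. Since Myof was higher and Dysf lower in every Dock3 KO sample, the p of 0.1, the order and the sign were fixed beforehand. The ratio therefore adds no support beyond the single genes. Myof is also made by cells other than muscle. Fibroblast markers summed to 35417 to 36549 normalized counts in WT and 42147 to 48746 in Dock3 KO, with 2 of 8 past the limma threshold and higher, Col1a1 and Col3a1. The list did not go one way: Dcn, its most abundant gene, had a log2 difference of -0.28, Lum of -0.48 and Pi16 of -0.47 (limma adjusted p 0.654, 0.545 and 0.296), and Pi16 was lower in every Dock3 KO sample. Endothelial markers summed to 4182 to 5812 and 4198 to 5314 and overlapped, and macrophage markers summed to 4253 to 4672 and 3808 to 4267. The part of these cell types in the Myof values was not tested.

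**Figure D3:**
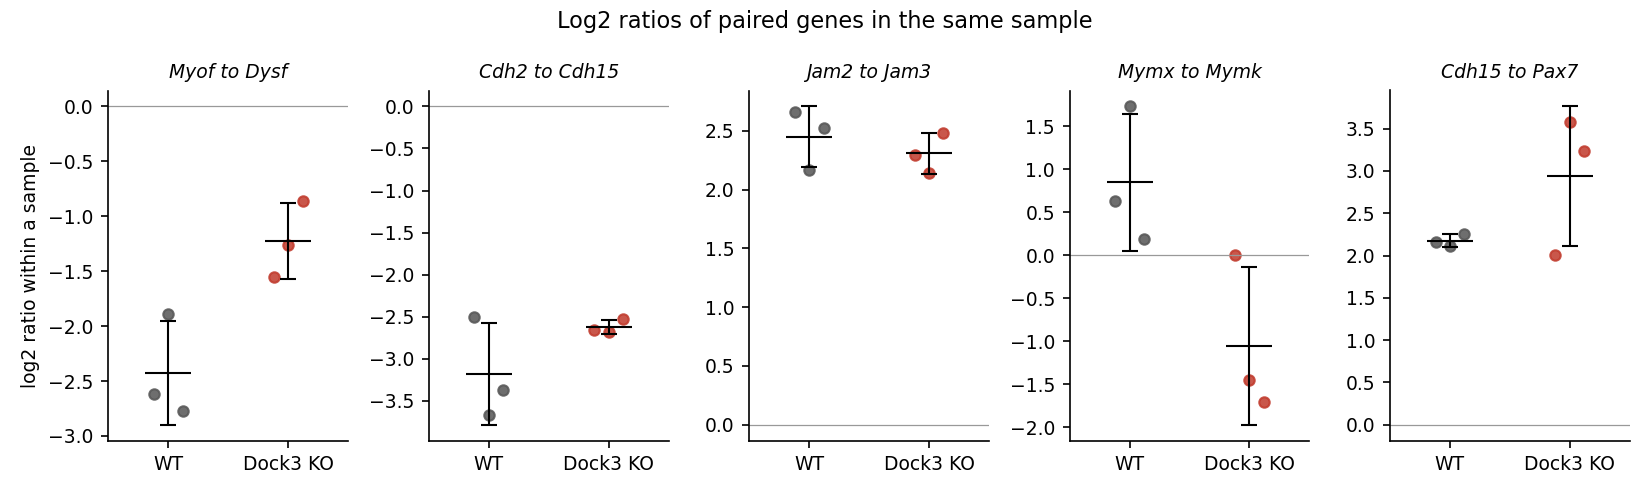
Log2 ratios of paired genes within each sample (vertical axis, log2 of the normalized count + 1 of the first gene minus that of the second). Points are samples, and the bar with whiskers is the mean ± SD (n = 3). Myof to Dysf is higher in every Dock3 KO sample, which follows from the values of Myof and Dysf taken singly. Mymx to Mymk is lower and rests on values of 0, and the other 3 ratios overlap.

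Among the adhesion genes, Cdh15 showed the tightest WT values. Cdh15 (ENSMUSG00000031962, chromosome 8, 122847966 to 122867397, plus strand) encodes M-cadherin, which holds satellite cells to their fibre and joins myoblasts to each other. It stood at 324, 316 and 327 normalized counts in the WT muscles, against 288, 242 and 240 in the knockout, with no overlap. The means were 322 ± 5.68 and 257 ± 27.1 (SD, n = 3 each), a Dock3 KO mean of 79.6% of the WT mean. The log2 difference was -0.33 (95% interval -0.68 to 0.01, limma adjusted p 0.50) and stayed below 0 in all 19 alternatives, none of which brought it past the threshold. Without overlap, leaving out samples or changing the pseudocount could not turn that sign. With Dock3 KO replicate 3 as the only knockout the difference was -0.43. An annotated protein-coding gene, Gm20388, overlaps Cdh15 on the same strand. The log2 ratio of Cdh15 to Pax7 was 2.16, 2.12 and 2.26 in WT and 2.004, 3.57 and 3.23 in Dock3 KO, and the genotypes overlapped (exact two-sided permutation p = 0.4).

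Cdh2 (ENSMUSG00000024304, chromosome 18, 16588877 to 16809246, minus strand) encodes N-cadherin, which signals at contacts between myoblasts and with nerve. It stood at 56.6, 24.0 and 30.7 normalized counts in the WT muscles, against 44.7, 36.9 and 40.9 in the knockout, so all Dock3 KO samples lay inside the WT range. The log2 difference was 0.22 (95% interval -0.61 to 1.06, limma adjusted p 0.909), and it turned to -0.03 without WT replicate 3, while it was 0.57 without WT replicate 1. The ratio of Cdh2 to Cdh15 overlapped between the genotypes, with a log2 difference of 0.56 (exact two-sided permutation p = 0.4), which was 0.90 without WT replicate 1 and 0.31 without WT replicate 3.

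Jam2 and Jam3 encode junctional adhesion molecules that bind each other across cells, in myoblasts and in the endothelium of blood vessels. Jam2 (ENSMUSG00000053062, chromosome 16, 84774123 to 84825928, plus strand) stood at 700, 637 and 1033 normalized counts in the WT muscles, against 643, 502 and 840 in the knockout. Jam3 (ENSMUSG00000031990, chromosome 9, 27097384 to 27155421, minus strand) stood at 110, 141 and 179 in the WT muscles, against 130, 113 and 149 in the knockout. For each, the genotypes overlapped. The log2 differences were -0.25 (95% interval -0.76 to 0.25) for Jam2 and -0.11 (95% interval -0.63 to 0.41) for Jam3, with limma adjusted p-values of 0.775 and 0.930. Leaving out 1 sample at a time moved Jam2 from -0.44, without Dock3 KO replicate 3, to -0.0449, without WT replicate 4, and it was -0.0717 without Dock3 KO replicate 2 and -0.39 without WT replicate 3. The log2 ratio of Jam2 to Jam3 was 2.45 ± 0.26 in WT against 2.31 ± 0.17 in the knockout (SD, n = 3 each), which overlapped (exact two-sided permutation p = 0.4). Schwann cell markers, of a cell type that also makes Jam3 and Cdh2, summed to 1605 to 2060 normalized counts in WT and 1642 to 1943 in Dock3 KO and overlapped. Pericyte and smooth muscle markers summed to 9855 to 14278 and 13527 to 14051 and overlapped too. None of the 8 Schwann cell markers and 6 pericyte and smooth muscle markers passed the limma threshold. The part of these cell types in the Jam3 and Cdh2 values was not tested. None of the 8 endothelial markers passed the limma threshold either, and their median log2 difference was -0.08. Pecam1 had the lowest of them, -0.22 (limma adjusted p 0.631), while Tek and Cldn5 stood at 0.24 and 0.31.

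Kirrel (ENSMUSG00000041734, chromosome 3, 87078593 to 87174747, minus strand) is a mammalian relative of the immunoglobulin-type proteins by which fly myoblasts find each other. It stood at 414, 532 and 410 normalized counts in the WT muscles, against 543, 500 and 585 in the knockout. WT replicate 3 lay above Dock3 KO replicate 2, so the genotypes overlapped. The log2 difference was 0.27 (95% interval -0.08 to 0.62, limma adjusted p 0.618), and it was -0.003 when all samples were rescaled to the same total, a scaling that moved the median of all genes to -0.28. Kirrel stayed above 0 in the other 18 alternatives.

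**Figure D4:**
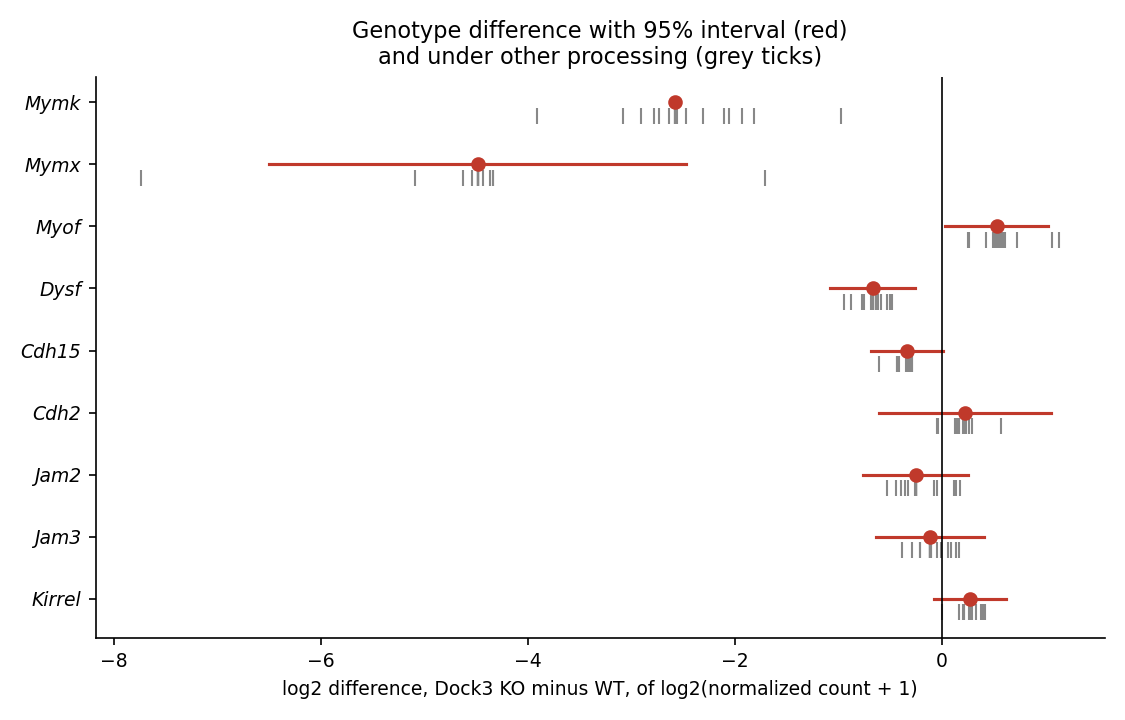
Log2 difference of each gene, Dock3 KO minus WT (horizontal axis). Red points are the values of the text, red lines their 95% intervals from limma (none for Mymk, which is below the filter), and grey ticks the values under other processing, pseudocounts of 0.1 and 10 included. The value and interval of Mymx depend on the pseudocount, since every Dock3 KO sample is at 0. Mymk, Mymx, Dysf and Cdh15 lie below 0 and Myof above 0 under every alternative run, while the ticks of Cdh2, Jam2, Jam3 and Kirrel fall on both sides of 0. The genes that keep their side are those without overlap, for which leaving out samples or changing the pseudocount cannot turn the sign.

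Per kb of annotated exon, the members spanned a wide range of levels. In WT, Dysf was highest at 254 ± 60.5 normalized counts per kb (SD, n = 3), above Jam2 at 131 ± 35.2 and Cdh15 at 99.1 ± 1.75. These 3 did not overlap in their sample ranges, and Cdh15 lay above Kirrel at 60.5 ± 9.31. Below them, Kirrel and Jam3 (44.7 ± 10.8) overlapped, as did Myof (30.7 ± 2.22) and Mymx (24.9 ± 16.1), Mymx and Mymk (8.84 ± 5.96), and Mymk and Cdh2 (4.60 ± 2.13). Mymx per kb was thus near Myof in WT muscle although its normalized count is low, because the gene has 1027 bases of exon against 12603 for Myof. In Dock3 KO, the same 4 genes led in the same order, with Dysf at 157 ± 16.6, Jam2 at 109 ± 28.1, Cdh15 at 78.9 ± 8.34 and Kirrel at 72.7 ± 5.66. Jam2 then overlapped Cdh15, and Cdh15 overlapped Kirrel. Myof, at 46.0 ± 16.0, overlapped Jam3, at 40.8 ± 5.63, and both fusogens lay below Cdh2.

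**Figure D5:**
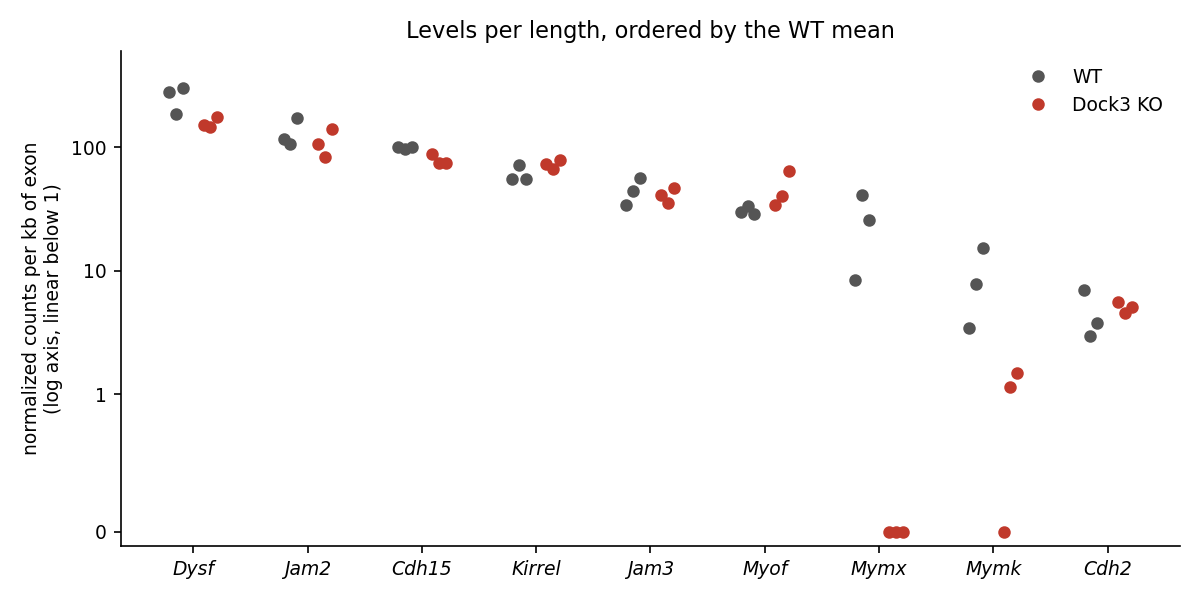
Normalized counts per kb of annotated exon (vertical axis, log scale, linear below 1) in each sample, with genes ordered by the WT mean. Grey points are WT and red points Dock3 KO samples. Dysf is highest in both genotypes, and the fusogens lie between 3.45 and 40.6 in WT and between 0 and 1.5 in Dock3 KO.

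Other genes were read from 5 lists, called the 5 fusion lists here. They held membrane and recognition genes, actin and Rac genes, the muscle transcription factors above, relatives of the members, and catenins and cadherin partners. The relatives were listed by family, not by a role in fusion. Of 67 listed genes tested, 0 passed the limma threshold. At an unadjusted p under 0.05 there were 8, with 1 higher and 7 lower in Dock3 KO. Over all genes these shares were 1.03% and 10.5%, so the lists were near the background. Their median log2 difference was -0.04, against -0.01 for all genes. Among 21 membrane and recognition genes, 3 had an unadjusted p under 0.05, all lower, and the list's median was -0.09. Stab2, a receptor for phosphatidylserine, stood at 224, 209 and 143 normalized counts in the WT muscles, against 103, 88.4 and 85.4 in the knockout. Its log2 difference was -1.03 ± 0.228 (SE, limma adjusted p 0.0859), and it passed when all samples were rescaled to the same total (limma adjusted p 0.0413). Itgb1, the beta-1 integrin, had means of 5575 ± 487 and 4232 ± 503 (SD, n = 3 each, limma adjusted p 0.297).

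Among 18 actin and Rac genes, 1 had an unadjusted p under 0.05, and the list's median was 0.05. It was Wipf1, a partner of the actin regulator WASP, with 365, 318 and 348 normalized counts in the WT muscles, against 515, 447 and 531 in the knockout (log2 difference 0.53, limma adjusted p 0.185). Wasl, another actin regulator, overlapped between the genotypes, with a log2 difference of -0.40 (limma adjusted p 0.554). Relatives of the members were mostly low, with 8 of 17 tested and a median of -0.15. Of these, Cdh13 had the smallest p (log2 difference -0.38, limma adjusted p 0.445), followed by Cdh11 (0.50, limma adjusted p 0.609). Among 9 catenins and cadherin partners the median was 0.02, and the smallest p-values belonged to Jup and Boc, with log2 differences of -0.29 and 0.34 (limma adjusted p 0.495 and 0.497).

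The 3 protein-coding genes whose log2 values followed Mymx most closely over the 6 samples were Dad1, Crhr2 and Vasp, with Pearson's r of 0.989, 0.988 and 0.987. Pearson's r does not measure the size of a difference, and their log2 differences were -0.16, -0.59 and -0.42. None passed the threshold (limma adjusted p 0.742, 0.113 and 0.352). Over 6 samples in 2 groups such values are a description.

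Promoter windows from RefSeq (GRCm38.p6), the 250 bases before the RefSeq start, were matched for 4 members, namely Cdh15, Dysf, Kirrel and Myof. The E-box CANNTG, the word that myogenic factors bind and that reads the same on both strands, was found 3 times in the window of Cdh15 and 0 times in the windows of the other 3. The RefSeq start of Cdh15 (122848374) lies past the start of the GENCODE gene (122847966), so its window and the 3 words lie inside the annotated gene, and most of the Kirrel window (87174538 to 87174787) lies inside its gene too. Over all 32851 windows, 66.2% hold at least 1 such word and 12.2% hold 3 or more. The form CAGCTG was in 0 of the members' windows and in 13% of all windows.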

How the data were processed

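The authors deposited 1 table of normalized counts per gene, treated here as a signal, with 1 column per sample and all 6 columns used. Per the submitters' processing notes, Trim Galore 0.4.5, Salmon 0.12.0, DESeq2 1.22.1, R 3.5.3 and the build mm10 (GRCm38) were used, with no role or order given. The annotation, the use of strand and the assignment of shared reads are not given in the sources used here. Libraries were ribosome-depleted and stranded, per the labels' protocols.

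All 54393 identifiers matched GENCODE M21 (GRCm38). Whole reads were not recovered: 15.2% to 25.8% of low values were within 0.01 of a whole multiple of the worth of 1 read, so tests on counts were not run. Values were taken as log2(value + 1), and the 16031 genes with a mean of 10 or more were fitted without covariates by limma 3.58.1 (R 4.3.3, eBayes with a trended prior variance) and adjusted together. The steps were tested on simulated data. Paired members were compared as log2 ratios within a sample by exact permutation. Copies were searched with blastn 2.17.0 (at least 95% identity over 50% of the shorter transcript and 100 bases). Plots used Python 3.11.15 and matplotlib 3.10.9.

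The members, lists and tests were chosen with earlier results of these data known. Named genes are the members, Dock3, the 2 genes of smallest p in each of the 5 fusion lists, the 3 genes most like Mymx, and markers shown beside a result. The markers shown singly (Pax7, Itga7, Sdc4, Vcam1, Chodl, Fgfr4, Megf10, Actc1, Chrng, Myh3, Myh8, Myl4, Tnnt2, Pecam1, Tek, Cldn5, Col1a1, Col3a1, Dcn, Lum, Pi16) and Myog and Myf5 were chosen after their values were seen. Alternatives were pseudocounts of 0.1 and 10, no filter, a minimum mean of 50, 3 other scalings, 2 other prior variances, protein-coding genes only, log2 Gm42418 as a covariate, a replicate block, and samples left out.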

Additional observations from a re-analysis of the deposited data

How the results depend on the processing

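Of the 9 members, Mymk, Mymx, Dysf, Cdh15 and Myof kept their direction under every alternative in which they were fitted. These are the members without overlap between the genotypes, so leaving out samples or changing the pseudocount could not turn their sign. Filters and prior variances do not alter the difference. The number of members called, 0, became 1 in 5 settings: Mymx with no filter, with samples rescaled to the same total, with the same rescaling without Gm42418 and Lars2 and with a prior variance without trend (limma adjusted p 0.0102, 0.0351, 0.04998 and 0.0263), and Dysf without WT replicate 3. Rescaling to the same total moved the median of all genes to -0.28 and brought 1 gene of the 5 fusion lists, Stab2, past the threshold. It turned Cdh2 to -0.0452 and Kirrel to -0.00301. Jam2, Jam3 and Wasl turned to 0.17, 0.14 and 0.0685 with log2 Gm42418 as a covariate and to 0.12, 0.0869 and 0.0386 without Dock3 KO replicates 1 and 2 together. Leaving out 1 sample at a time gave differences of -0.0346 to 0.57 for Cdh2, -0.44 to -0.0449 for Jam2 and -0.29 to 0.0627 for Jam3, with the turned signs of Cdh2 and Jam3 without WT replicate 3 and WT replicate 4. The cause was not tested. Mymx, Mymk and Cdh2 could not be fitted with a minimum mean of 50, nor Mymx without WT replicate 3, because their means are lower than the filter.

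The number of genes called, 165, was 104 with a prior variance without trend, 104 with protein-coding genes only, 57 with the Gm42418 covariate and 56 without Dock3 KO replicates 1 and 2 together. It was 100 to 159 when each sample was left out in turn, and members called then were 0 to 1. Of the called genes, 43.0% were higher, against 23.2% when rescaled to the same total. With the replicate block, 127 genes were called, 0 of them members, and Jam2 and Jam3 turned to 0.14 and 0.16. Same-numbered samples share only a number, and their deviations correlated at 0.065 and 0.0066 across genes. Dock3 itself passed the threshold in the main fit (limma adjusted p 0.0140). It missed it with a prior variance without trend and with the Gm42418 covariate (limma adjusted p 0.123 and 0.0836). Dock3 also missed it without WT replicate 1, 3 or 4 and without Dock3 KO replicate 2. The Dock3 KO values of the fusogens lie within a few reads of 0, where depth limits what can be detected.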
